A study of Mus musculus with 7 samples.

Results

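Collagens are the main structural proteins of the extracellular matrix, and the collagen genes were taken here as all genes whose symbol in the count tables reads Col, a number, a and a number. There were 44 such genes among the 51426 genes counted, and the 34 with at least 10 counts in total over the 7 libraries were tested, within a fit over all 18553 genes that met the same minimum. Of the 44 genes, 11 were fibrillar collagens, 6 encoded the chains of collagen IV, the collagen of basement membranes, and 27 belonged to other classes. The mRNA came from whole livers of male mice, 3 WT and 4 TET1 KO, which had eaten a high-fat diet for 16 weeks from the age of 8 weeks on. The labels give C57BL/6J as the strain of both groups and TET-1-TKO as the genotype of the knockout. The study's methods list a whole-body Tet1 knockout strain of mixed origin, so the deletion was not limited to any liver cell type or to the liver, and all 7 mice shared the sex and the diet. The labels name both poly(A) selection and rRNA removal without saying which was used.

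Collagen chains are made in the endoplasmic reticulum, where proline and lysine residues are hydroxylated and chains wind around each other into a helix, and most are secreted and cross-linked outside the cell. Collagens I and III form the fibres of liver scars, which are laid down mainly by activated hepatic stellate cells and portal fibroblasts. Collagen IV forms the sheet of basement membranes around vessels and bile ducts, while collagens XV and XVIII, the multiplexins, border on them. TET1 oxidises methylated cytosine in DNA, a step towards its demethylation.

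The largest difference among collagen IV genes was in Col4a1, whose gene lies head to head with Col4a2 on chromosome 8. In RefSeq (GRCm38.p6) Col4a1 spans chr8:11198423-11312889 and Col4a2 spans chr8:11312805-11449287, and the annotated genes share 85 bases at their 5′ ends. The promoter windows of both genes are shown because the genes share their 5′ ends and both had less mRNA in every TET1 KO liver than in any WT liver. Each window runs from 250 bases before to 50 after 1 annotated start, as the RefSeq promoter table gives it. This start is the outer end of the gene for Col4a2 and Col3a1, and lies 63 bases inside it for Col4a1, 219 for Col11a2 and 3212 for Col20a1. The capitals mark the 78 bases, chr8:11312777-11312854, that both windows hold on opposite strands.
Col4a1, chr8:11312777-11313076, minus strand: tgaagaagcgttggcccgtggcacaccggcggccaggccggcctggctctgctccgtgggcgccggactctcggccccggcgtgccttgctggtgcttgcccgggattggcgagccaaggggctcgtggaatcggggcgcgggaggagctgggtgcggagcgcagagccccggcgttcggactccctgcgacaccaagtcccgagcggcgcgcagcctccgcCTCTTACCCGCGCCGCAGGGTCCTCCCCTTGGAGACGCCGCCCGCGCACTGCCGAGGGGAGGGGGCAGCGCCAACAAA
Col4a2, chr8:11312555-11312854, plus strand: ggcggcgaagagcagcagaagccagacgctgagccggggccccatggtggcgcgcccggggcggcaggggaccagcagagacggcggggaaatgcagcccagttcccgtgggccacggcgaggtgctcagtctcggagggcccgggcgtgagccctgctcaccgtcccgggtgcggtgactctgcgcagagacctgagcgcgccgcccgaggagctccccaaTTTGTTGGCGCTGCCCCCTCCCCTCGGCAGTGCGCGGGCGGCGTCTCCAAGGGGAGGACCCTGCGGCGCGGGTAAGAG
The Col4a1 window holds 37 CpG and the Col4a2 window 33, against a median of 7 over the 32851 windows of all genes, of which 5.58% hold at least 37 and 8.56% at least 33.

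The windows of Col11a2 and Col20a1, both higher at an adjusted p under 0.05 in DESeq2, and of Col3a1, a fibrillar gene with a negative log2 fold change, are shown for contrast. Capitals mark each CpG in the first pair of windows and the letters TATAAA in the Col3a1 window. The Col11a2 window also holds 1 TATAAA, which is not marked.
Col11a2, chr17:34038888-34039187, plus strand: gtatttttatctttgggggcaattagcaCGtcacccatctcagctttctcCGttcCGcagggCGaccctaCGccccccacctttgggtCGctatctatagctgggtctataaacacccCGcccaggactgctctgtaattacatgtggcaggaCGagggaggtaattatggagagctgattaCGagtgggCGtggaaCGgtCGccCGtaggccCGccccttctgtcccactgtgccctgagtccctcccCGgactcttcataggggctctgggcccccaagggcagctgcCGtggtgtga
Col20a1, chr2:180986285-180986584, plus strand: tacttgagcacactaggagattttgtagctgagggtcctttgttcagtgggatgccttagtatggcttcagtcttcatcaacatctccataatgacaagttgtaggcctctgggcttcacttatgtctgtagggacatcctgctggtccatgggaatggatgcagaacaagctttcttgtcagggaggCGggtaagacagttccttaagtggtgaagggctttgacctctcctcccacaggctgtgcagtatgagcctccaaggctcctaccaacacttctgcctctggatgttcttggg
Col3a1, chr1:45311288-45311587, plus strand: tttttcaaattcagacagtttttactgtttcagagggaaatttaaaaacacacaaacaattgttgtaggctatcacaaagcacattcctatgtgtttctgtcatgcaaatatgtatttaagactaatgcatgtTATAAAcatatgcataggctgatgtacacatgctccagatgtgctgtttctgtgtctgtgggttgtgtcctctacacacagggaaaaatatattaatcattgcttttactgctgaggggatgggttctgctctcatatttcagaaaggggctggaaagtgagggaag
Col11a2 has 16 CpG in its window, Col20a1 has 1 and Col3a1 has 0. Windows were found for 35 of the 44 genes, 38 windows in all, with a median of 11.5 CpG. Searched on both strands, CCAAT was in 13 of these windows and in 37.4% of all windows, GGGCGG was in 23 and in 35.7%, and TATAAA was in 5 and in 13.6%. DNA methylation was not measured in these samples.

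Collagen genes together took 0.109%, 0.112% and 0.0922% of the counts in the WT livers and 0.117%, 0.0863%, 0.0969% and 0.0990% in the TET1 KO livers. The groups overlapped, with the highest and the lowest share both in TET1 KO livers. The 95% exact binomial interval of these shares, which covers counting error only, was at most from 0.115% to 0.119%. Between 46.6% and 68.3% of the collagen counts of a library came from 1 gene, Col18a1. Collagen XVIII is a heparan sulfate proteoglycan of basement membranes that hepatocytes make in large amounts, and its fragment endostatin inhibits the growth of vessels. Library sizes were 15005277 to 22746138 counts with overlapping groups, hepatocyte markers summed to between 57391 and 80214 CPM in every library, though 1 of them, Apoa1, was called higher in DESeq2 (log2 fold change 1.07, edgeR adjusted p = 0.0991), and Tet1 had 1, 4 and 1 counts in WT and 2, 1, 4 and 1 in TET1 KO livers, too few to show the deletion (p = 1 in an exact two-sided permutation test).

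Per kilobase of exon, with the exons of GENCODE M1 (an annotation of the older build NCBIM37, used for lengths only), Col18a1 had by far the highest level, with a mean of 85.1 CPM per kb over the 7 livers. The minor fibrillar chains Col5a3 (13.3 CPM per kb) and Col27a1 (10.6 CPM per kb) came next. Col14a1 followed with 5.14, Col3a1 with 3.54, Col4a1 with 3.06, Col4a2 with 2.40 and Col1a1 with 2.00 CPM per kb. This order is over all 7 livers and differed by genotype. In WT livers Col14a1 (7.32 CPM per kb) had a higher mean than Col27a1 (6.06), while in TET1 KO livers the mean of Col27a1 (13.9 CPM per kb, with 1 liver at 29.3) was above that of Col5a3 (12.3). The ranges over the livers overlapped between each of these neighbours except Col18a1 and Col5a3. Of the 44 genes, 20 had a mean of at least 1 CPM, and 24 lay below this level.

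**Figure D1:**
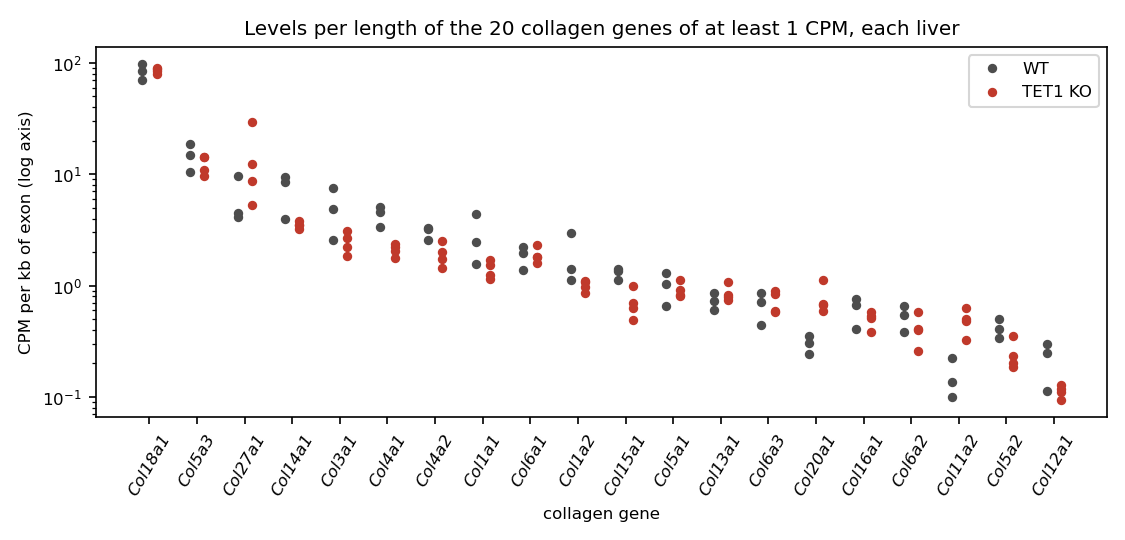
Level of each of the 20 collagen genes with a mean of at least 1 CPM, in CPM per kb of exon on a log axis, ordered by the mean over the 7 livers; each point is 1 liver, WT in grey and TET1 KO in red. Col18a1 lies apart at a mean of 85.1 CPM per kb, and the fibrillar chains Col5a3 and Col27a1 lie above Col1a1.

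The comparison of genotypes asks which collagens differed between livers with and without TET1 under the same diet. At an adjusted p under 0.05, with edgeR's quasi-likelihood test and the adjustment over all genes tested, 1 collagen gene, Col4a1, was lower and 1, Col11a2, was higher in TET1 KO livers. Over all genes tested, 0.932% were called lower (173 genes) and 0.593% higher (110 genes), a split that scaling to library size only turned into 247 lower and 87 higher. An unadjusted p under 0.05 was reached by 10 lower and 5 higher genes of 34, which is 29.4% and 14.7%, against 12.2% and 11.7% of all genes tested. The groups did not overlap in 5 lower genes (14.7%) and 4 higher genes (11.8%), against 10.2% and 9.56% of all genes. The share of genes with non-overlapping groups was therefore near the background, and so was the share of higher genes.

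The median log2 fold change of the 34 tested genes was -0.05, with 17 positive and 17 negative values, beside a median of 0.01 over all genes tested. It was -0.32 for the 20 genes of at least 1 CPM. Of these, 13 (65%) were negative and 9 (45%) lower at an unadjusted p under 0.05, against 49.0% and 12.2% of all genes tested. For the 14 tested genes under 1 CPM the median was 0.20. These numbers depended on single livers. Without WT replicate 3 the median was -0.30 for all tested collagen genes and -0.51 for the 20 genes. Without WT replicate 1 the median of the 20 genes was -0.13. In that fit only 5 of them were lower at an unadjusted p under 0.05, against 13.2% of all genes. In DESeq2, 7 collagen genes were lower (Col4a1, Col4a2, Col14a1, Col15a1, Col1a1, Col1a2 and Col3a1) and 2 were higher (Col11a2 and Col20a1) at an adjusted p under 0.05, while over all genes tested DESeq2 called 3.83% lower and 3.42% higher. Without WT replicate 3, edgeR called 5 genes lower (Col1a1, Col3a1, Col4a1, Col12a1 and Col14a1) and none higher, against 0.83% and 0.35% of all genes in the same fit, with 9 lower and 4 higher at an unadjusted p under 0.05 (10.5% and 9.05% of all genes). Without WT replicate 2 it called none in either direction, while calls over all genes fell to 24 lower (0.132%) and 17 higher (0.0933%). In that fit 10 collagen genes were lower and 3 higher at an unadjusted p under 0.05, against 6.44% and 6.55% of all genes.

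**Figure D2:**
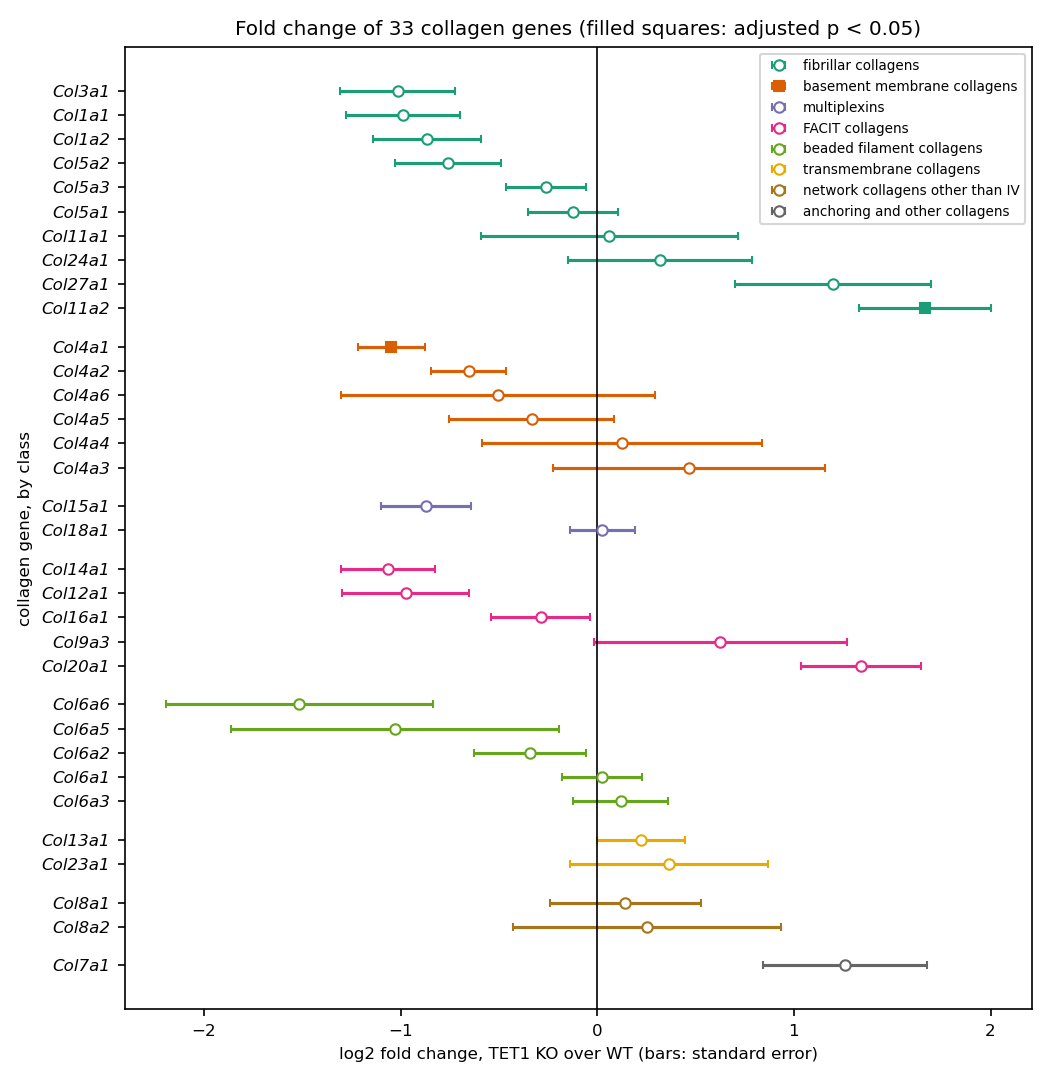
Log2 fold change of 33 tested collagen genes, TET1 KO over WT, with its standard error as a bar, grouped and coloured by class; filled squares mark an adjusted p under 0.05 in edgeR. Col4a1 at -1.05 and Col11a2 at 1.67 are the called genes. Col25a1, with 1 count in all WT livers, is left out.

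Col4a1 encodes the alpha 1 chain of collagen IV, which joins with the alpha 2 chain from Col4a2 in most basement membranes. Its level was 31.3, 34.5 and 23.0 CPM in the WT livers and 12.0, 13.8, 16.3 and 15.2 CPM in the TET1 KO livers. The highest TET1 KO liver was below the lowest WT liver. The means were 29.6 ± 5.95 CPM (SD, n = 3) and 14.3 ± 1.85 CPM (SD, n = 4), a log2 fold change of -1.05 with a standard error (SE) of 0.17 and an adjusted p of 0.0161 in edgeR. The adjusted p was 0.100 without WT replicate 2 and 0.0519 without TET1 KO replicate 2, and lay between 2.28e-05 and 0.100 over all alternatives.

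Col4a2 was at 21.2, 21.9 and 17.1 CPM in WT and 9.56, 13.2, 16.7 and 11.5 CPM in TET1 KO livers. The groups did not overlap, though TET1 KO replicate 3 came close to WT replicate 3. Its log2 fold change of -0.65 (SE 0.19) did not pass in edgeR (adjusted p = 0.0902) and passed in DESeq2 (adjusted p = 0.0387), with a highest adjusted p of 0.339 over the alternatives. The other chains of collagen IV, which occur in the basement membranes of kidney, lung and smooth muscle, were at 0 to 1.47 CPM in every liver. Col4a3, Col4a4, Col4a5 and Col4a6 had log2 fold changes between -0.50 and 0.47, and none reached an unadjusted p under 0.05. Summed over the 6 genes, collagen IV mRNA was 41.2 to 58.8 CPM in WT and 22.7 to 34.2 CPM in TET1 KO livers, with no overlap.

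Col15a1 encodes collagen XV, which links basement membranes to the fibres around them. It stood at 7.09, 8.60 and 8.97 CPM in WT and 4.01, 3.14, 6.25 and 4.44 CPM in TET1 KO livers. All TET1 KO livers were below the WT livers, with a log2 fold change of -0.87 (SE 0.23), which passed in DESeq2 (adjusted p = 0.0177) but not in edgeR (adjusted p = 0.0725, and 0.0177 to 0.288 over all alternatives). Col18a1, the other multiplexin, was at 490.3, 689 and 596 CPM in WT and 561, 617, 597 and 634 CPM in TET1 KO livers. The groups overlapped, and its log2 fold change was 0.03 (SE 0.16, adjusted p = 0.938 in edgeR), turning to -0.04 with scaling to library size only and to -0.09 without WT replicate 1.

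**Figure D3:**
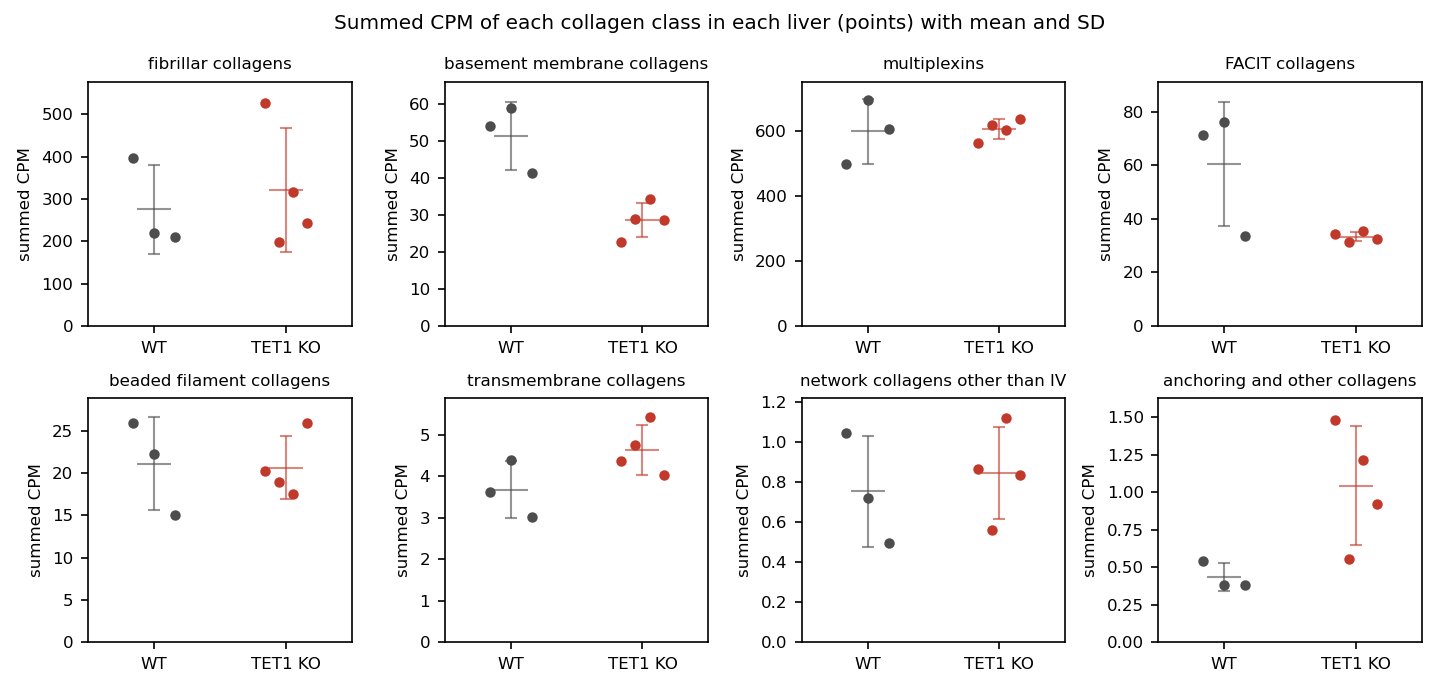
Summed CPM of the genes of the 8 collagen classes in each liver, as points with the mean and SD for WT in grey and TET1 KO in red, each axis starting at 0. The groups lie apart in collagen IV, 41.2 to 58.8 CPM in WT against 22.7 to 34.2 CPM in TET1 KO, and in the other direction in the anchoring and other collagens, where Col7a1 alone had counts, 0.381 to 0.546 against 0.558 to 1.48 CPM. They overlap in the other classes.

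Among the fibrillar collagens, 10 of 11 genes were tested, 1 was called higher and 0 lower in edgeR, while DESeq2 called 3 lower and 1 higher. At an unadjusted p under 0.05, 4 were lower and 2 higher, against the 12.2% and 11.7% of all genes given above. Col1a1 and Col1a2 encode the chains of collagen I, the main component of scar fibres. Col1a1 was at 28.6, 16.0 and 10.2 CPM in WT and 7.59, 11.0, 8.13 and 10.1 CPM in TET1 KO livers. WT replicate 1 stood far above the rest and WT replicate 3 lay within the TET1 KO range. The log2 fold change was -0.99 (SE 0.29, adjusted p = 0.0905 in edgeR), and the adjusted p was 0.0329 without WT replicate 3 and 0.0227 in DESeq2. Without WT replicate 1 the log2 fold change was -0.51 (adjusted p = 0.196 in edgeR), and the highest adjusted p over the alternatives was 0.278.

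Col1a2 had the same order of WT livers, with 35.8, 17.2 and 13.8 CPM in WT and 11.8, 13.5, 10.5 and 13.1 CPM in TET1 KO livers. Its groups were separated only by the small gap between WT replicate 3 and TET1 KO replicate 2. The log2 fold change was -0.86 (SE 0.27, adjusted p = 0.104 in edgeR), and it was -0.34 without WT replicate 1, whereas DESeq2 gave an adjusted p of 0.0405. Col3a1 encodes collagen III, which forms the fine reticular fibres of the liver and mixes with collagen I in scars. It was at 62.9, 40.6 and 21.7 CPM in WT and 15.5, 26.2, 22.5 and 18.6 CPM in TET1 KO livers. WT replicate 3 again lay within the TET1 KO range, and the log2 fold change was -1.01 (SE 0.29, adjusted p = 0.0888 in edgeR, 0.0192 without WT replicate 3 and 0.0183 in DESeq2). Without WT replicate 1 it was -0.59 (adjusted p = 0.189 in edgeR), and the highest adjusted p over the alternatives was 0.303.

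Collagen V starts and limits the growth of collagen I fibrils. Its alpha 2 chain, Col5a2, was at 4.76, 3.94 and 3.25 CPM in WT and 1.79, 2.23, 1.93 and 3.38 CPM in TET1 KO livers, where only TET1 KO replicate 4 reached the WT range (log2 fold change -0.76, SE 0.27, adjusted p = 0.128 in edgeR). Col5a1 (5.56 to 11.0 CPM in WT, 6.90 to 9.50 CPM in TET1 KO) and Col5a3 (71.9 to 128 CPM in WT, 65.7 to 97.2 CPM in TET1 KO) overlapped between groups, and neither log2 fold change passed in edgeR (-0.12, adjusted p = 0.775, and -0.26, adjusted p = 0.450). The sign for Col5a1 turned without WT replicate 1, to 0.11. The levels of Col5a1 and Col5a3 were therefore not separated from those of WT beyond the spread between livers.

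Col11a2 went the other way. It encodes a chain of collagen XI, a fibrillar collagen known mainly from cartilage. Its level was 1.54, 0.678 and 0.936 CPM in WT and 3.39, 2.23, 4.27 and 3.29 CPM in TET1 KO livers, so that the groups were well apart. The log2 fold change was 1.67 (SE 0.34, adjusted p = 0.0374 in edgeR). The call was lost without WT replicate 2 (adjusted p = 0.195), WT replicate 3 (0.0889), TET1 KO replicate 1 (0.0684) or TET1 KO replicate 3 (0.110). The range over all alternatives was 0.000785 to 0.195. Other genes of collagens II, IX, X and XI had low levels, of at most 1.05 CPM in any liver. Col2a1 had 2 counts in all libraries together, Col9a1, Col9a2 and Col10a1 had 0, Col11a1 stood at 0.0847 to 0.440 CPM and Col9a3 at 0.139 to 1.05 CPM. Of 5 cartilage markers, Matn1 had no count, Acan and Snorc had 1 count each and Comp had 11 in all libraries together. The fifth, Sox5, a transcription factor found in cartilage and in other tissues, was at 15.5 to 17.1 CPM in WT and 14.7 to 34.3 CPM in TET1 KO livers (log2 fold change 0.52, edgeR adjusted p = 0.214).

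Col27a1, a fibrillar collagen of cartilage and other tissues, was at 125, 58.7 and 53.5 CPM in WT and 382, 69.4, 162 and 112 CPM in TET1 KO livers. TET1 KO replicate 1 had the highest level and the groups overlapped. The log2 fold change of 1.20 (SE 0.50, unadjusted p = 0.0339, edgeR adjusted p = 0.175) fell to 0.54 when TET1 KO replicate 1 was left out and rose to 1.69 without WT replicate 1. The remaining fibrillar genes, Col11a1 and Col24a1, lay under 1 CPM in every liver, with log2 fold changes of 0.06 and 0.32.

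**Figure D4:**
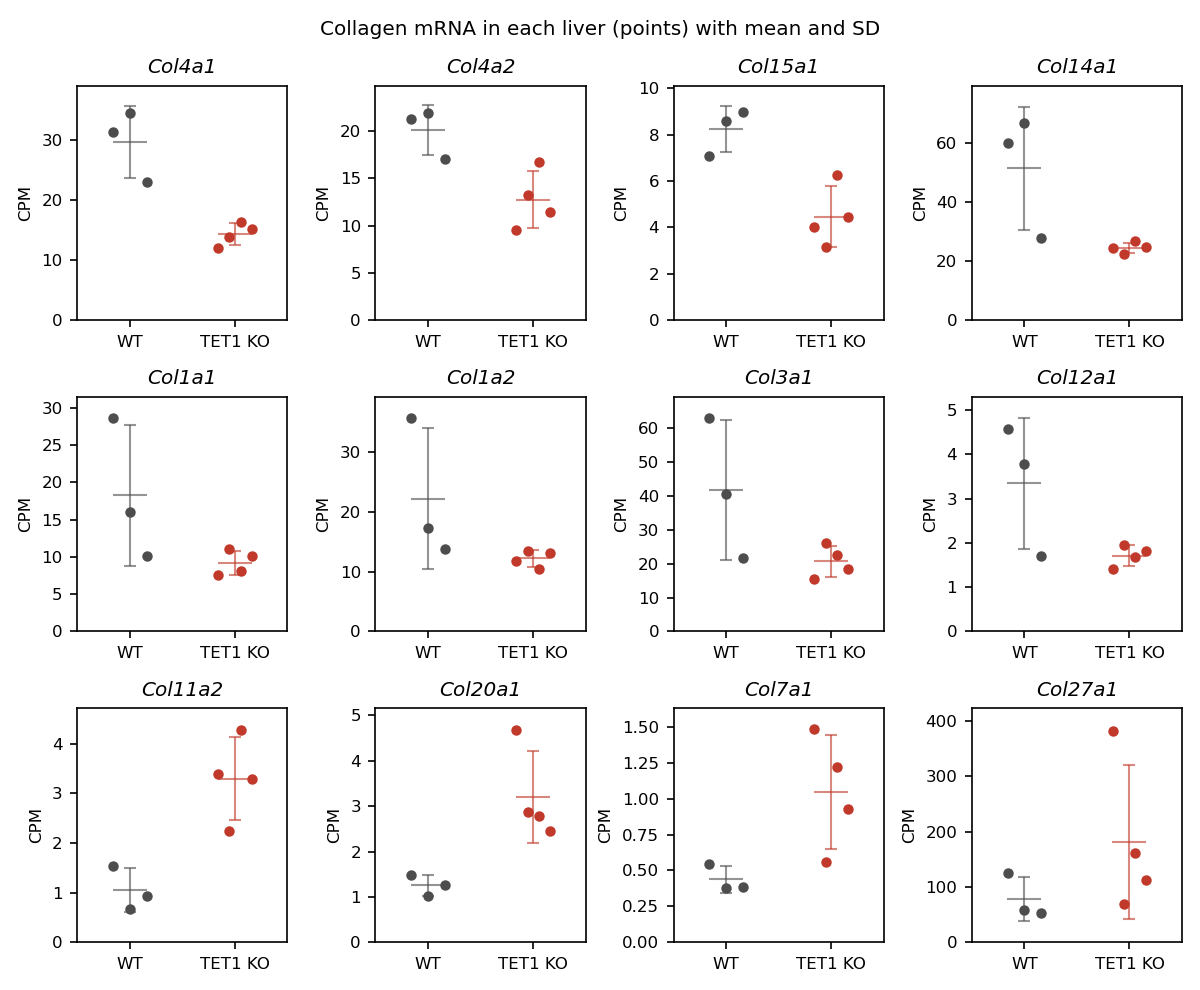
Level of 12 collagen genes in each liver in CPM, as points with the mean and SD, WT in grey and TET1 KO in red, each axis starting at 0. All 12 have an unadjusted p under 0.05 in edgeR. Of the 34 tested collagen genes, the groups lie apart in 5 lower and 4 higher genes. The groups lie apart in Col4a1, Col4a2, Col15a1, Col14a1, Col1a2, Col11a2, Col20a1 and Col7a1, WT replicate 3 lies within the TET1 KO range in Col1a1, Col3a1 and Col12a1, and 1 TET1 KO liver at 382 CPM stands above the rest in Col27a1.

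FACIT collagens sit on the surface of fibrils and tie them to the matrix around them. Col14a1, the most abundant of them in counts, was at 59.8, 66.5 and 27.7 CPM in WT and 24.5, 22.4, 26.6 and 24.6 CPM in TET1 KO livers. The TET1 KO livers were alike and lay just below WT replicate 3 and far below the other WT livers. The log2 fold change was -1.07 (SE 0.24, adjusted p = 0.0530 in edgeR). It passed with no filter on low counts (0.0253), with scaling to library size only (0.0421), in DESeq2 (0.00238) and without WT replicate 3 (0.00275), and the highest value over the alternatives was 0.271. Col12a1 was at 4.56, 3.77 and 1.71 CPM in WT and 1.42, 1.95, 1.68 and 1.80 CPM in TET1 KO livers, with WT replicate 3 again among the TET1 KO livers (log2 fold change -0.97, SE 0.32, adjusted p = 0.111 in edgeR, 0.0496 without WT replicate 3 and at most 0.377 over the alternatives). Col16a1 was at 2.75 to 5.11 CPM in WT and 2.59 to 3.91 CPM in TET1 KO livers (log2 fold change -0.29, edgeR adjusted p = 0.506).

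Col20a1, another member of this class, had higher values. It was at 1.49, 1.02 and 1.27 CPM in WT and 4.69, 2.86, 2.79 and 2.45 CPM in TET1 KO livers, with no overlap. The log2 fold change was 1.34 (SE 0.31, adjusted p = 0.0547 in edgeR), and 7 of 15 alternatives took the adjusted p under 0.05, over a range of 0.00573 to 0.260. Col9a1 and Col9a2 had no count, and Col19a1 and Col22a1 had 2 and 4 counts in all.

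Collagen VI forms beaded filaments in most connective tissues. Col6a1 was at 6.00 to 9.72 CPM in WT and 7.06 to 10.1 CPM in TET1 KO livers, Col6a2 at 3.19 to 5.46 and 2.16 to 4.86 CPM, and Col6a3 at 5.34 to 10.2 and 6.96 to 10.6 CPM. The groups overlapped in all of them, and their log2 fold changes were 0.02, -0.34 and 0.12 (edgeR adjusted p = 0.951, 0.479 and 0.796). The sign of Col6a1 turned with scaling to library size only, to -0.04, and that of Col6a3 without WT replicate 3, to -0.10. Col6a6 had few counts, at 0.198, 0.635 and 0.495 CPM in WT and 0, 0.279, 0.102 and 0.231 CPM in TET1 KO livers (log2 fold change -1.51, SE 0.68, unadjusted p = 0.0451, edgeR adjusted p = 0.199). Col6a5 stayed at or under 0.397 CPM, Col6a4 had no count and Col28a1 had 1.

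Col7a1 encodes collagen VII, which anchors the basement membrane of the skin to the tissue beneath. It stood at 0.546, 0.381 and 0.385 CPM in WT and 1.48, 0.558, 1.22 and 0.926 CPM in TET1 KO livers. The groups were separated by the small gap between WT replicate 1 and TET1 KO replicate 2, and the log2 fold change of 1.26 (SE 0.42) had an edgeR adjusted p of 0.113. Col25a1, a transmembrane collagen known from neurons, had 0, 0 and 1 counts in WT and 3, 11, 2 and 3 counts in TET1 KO livers. This is a ratio of 16.4 between the groups with a 95% counting interval from 2.60 to 681, and 11 of the 19 counts of the TET1 KO livers came from 1 liver. Col13a1, another transmembrane collagen, was at 2.81 to 3.94 CPM in WT and 3.42 to 4.98 CPM in TET1 KO livers (log2 fold change 0.22, edgeR adjusted p = 0.567). It lies 0.825 Mb from Tet1 on chromosome 10, the closest of the collagen genes to the deleted gene. Col8a1, Col8a2 and Col23a1 lay under 1 CPM in every liver, with log2 fold changes of 0.14, 0.25 and 0.36. In all, 10 of the 44 genes had under 10 counts in total and were not tested. None of these had more than 3 counts in any library, and 6 had no count at all, where 3 counts would correspond to 0.127 to 0.209 CPM in the 7 libraries.

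Chains of the same collagen, and Col3a1 with Col1a1, whose collagens mix in fibres, were compared within a library, where scaling has no part. The ratio of Col4a1 to Col4a2 counts was 1.48, 1.57 and 1.35 in WT and 1.25, 1.05, 0.973 and 1.32 in TET1 KO livers. All TET1 KO livers lay below the WT livers, and the mean log2 ratio differed by -0.36, TET1 KO minus WT. This did not pass the exact two-sided permutation test over the 35 splits of the 7 livers (p = 0.0571, adjusted p = 0.190 over 5 ratios), which allows no p under 0.0286. The ratio of Col6a1 to Col6a2 counts was 1.78, 1.91 and 1.88 in WT and 3.66, 2.31, 2.14 and 2.08 in TET1 KO livers. Here the TET1 KO livers lay above the WT livers (log2 difference 0.42, exact permutation p = 0.0857, adjusted p = 0.190). The difference was 0.23 without TET1 KO replicate 1, the liver with the highest ratio.

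For Col5a1 to Col5a2 the log2 difference was 0.72 (exact permutation p = 0.114, adjusted p = 0.190), and 3 of 4 TET1 KO livers were above all WT livers. The ratio of Col1a1 to Col1a2 counts was 0.740 to 0.929 in WT and 0.644 to 0.819 in TET1 KO livers (log2 difference -0.13, exact permutation p = 0.429, adjusted p = 0.536). The ratio of Col3a1 to Col1a1 counts was 2.13 to 2.53 in WT and 1.83 to 2.77 in TET1 KO livers (log2 difference -0.03, exact permutation p = 0.857, adjusted p = 0.857). The ratios between the chains of collagens I and III thus overlapped between the groups.

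**Figure D5:**
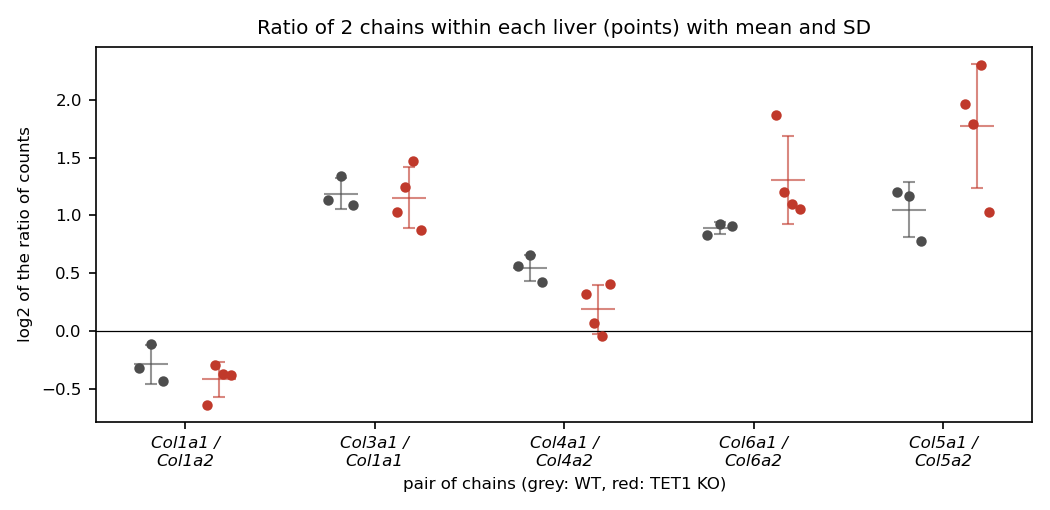
Log2 of the ratio of counts of 2 collagen chains within each liver for 5 pairs, as points with the mean and SD, WT in grey and TET1 KO in red. The groups lie apart for Col4a1 to Col4a2 (difference -0.36) and Col6a1 to Col6a2 (difference 0.42) and overlap for the other pairs.

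The genes that fold, cut, cross-link, bind and degrade collagens were followed in 6 lists, which hold 84 genes, 78 of them tested. In edgeR 3 were lower (Sec23a, Mmp14 and Tgfbr2) and 0 were higher, and DESeq2 called 9 lower and 1 higher, against 0.932% and 0.593% of all genes in edgeR and 3.83% and 3.42% in DESeq2. At an unadjusted p under 0.05, 17 were lower (21.8%) and 3 higher (3.85%), against 12.2% and 11.7% of all genes. The median log2 fold change of the 78 genes was -0.24, beside 0.01 over all genes. Sec23a encodes a coat protein of the vesicles that carry procollagen out of the endoplasmic reticulum. It was at 61.7, 85.9 and 66.5 CPM in WT and 45.6, 46.1, 42.2 and 46.7 CPM in TET1 KO livers, with no overlap (log2 fold change -0.66, SE 0.14, adjusted p = 0.0443 in edgeR). Mmp14 encodes a membrane-bound collagenase, and stood at 25.7, 27.8 and 23.8 CPM in WT and 13.6, 17.9, 14.5 and 16.3 CPM in TET1 KO livers, also with no overlap (log2 fold change -0.73, SE 0.14, adjusted p = 0.0322 in edgeR). Tgfbr2, a receptor of TGF-beta, the cytokine best known for raising collagen synthesis, was at 15.6, 18.8 and 18.8 CPM in WT and 10.1, 11.0, 10.7 and 10.6 CPM in TET1 KO livers (log2 fold change -0.75, SE 0.14, adjusted p = 0.0262 in edgeR). Leaving out 1 liver moved these log2 fold changes little, to between -0.76 and -0.50 for Sec23a, -0.78 and -0.66 for Mmp14 and -0.83 and -0.69 for Tgfbr2, but most of the calls were lost. None passed without WT replicate 2, TET1 KO replicate 2 or TET1 KO replicate 3, while all 3 passed without TET1 KO replicate 4, Sec23a and Tgfbr2 without WT replicate 1, Tgfbr2 alone without TET1 KO replicate 1 and, without WT replicate 3, only Nid1.

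The list of collagen synthesis and folding had 18 tested genes and a median log2 fold change of 0.01. Its most abundant gene in counts, P4hb, a subunit of prolyl hydroxylase, had a log2 fold change of -0.34 (edgeR adjusted p = 0.319), and 9 of the 18 genes were negative. Of the 11 tested genes of propeptide cleavage and cross-linking, 0 were called in edgeR, 1 was lower at an unadjusted p under 0.05 and DESeq2 called the same gene, Loxl2. Tgm2, the most abundant in counts, had a log2 fold change of -0.26 (edgeR adjusted p = 0.242). In collagen degradation and its inhibitors 12 of 14 tested genes were negative, with a median of -0.59, and 5 were lower at an unadjusted p under 0.05 (35.7%), against 49.0% of all genes negative and 12.2% lower at that level. Only Mmp14 was called in edgeR, and Mmp12 as well in DESeq2. Ctsl, a lysosomal protease, was at 383, 437 and 450.5 CPM in WT and 116, 399, 309 and 362 CPM in TET1 KO livers (log2 fold change -0.51, edgeR adjusted p = 0.339).

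Of the 7 tested collagen receptors 0 were called in edgeR or in DESeq2, and Itgb1, the common integrin chain, was the 1 gene lower at an unadjusted p under 0.05 (log2 fold change -0.42, edgeR adjusted p = 0.127). Of the 15 fibril and basement membrane partners 0 were called in edgeR and DESeq2 called 3 lower (Bgn, Lum and Nid1). At an unadjusted p under 0.05, 6 were lower (40.0%) and 1 higher (6.67%), against 12.2% and 11.7% of all genes. Fn1, which encodes fibronectin, was the most abundant of them in counts, with a log2 fold change of -0.56 (edgeR adjusted p = 0.208). Among 13 genes of TGF-beta and PDGF signals, Tgfbr2 was called and Tgfbr1 was not (log2 fold change -0.14, edgeR adjusted p = 0.696), and DESeq2 also called Ccn2 lower and Pdgfa higher.

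Cell type markers were read beside these values, since in whole liver fewer cells of a type and less RNA per cell cannot be told apart. Of 8 stellate cell markers, 2 (25%) were called lower, against 0.932% of all genes tested. These were Nt5e and Rgs5, with log2 fold changes of -1.50 and -0.70 (edgeR adjusted p = 0.0244 and 0.0466), and 3 of the 8 were positive. The 8 stellate cell markers summed to 166 to 279 CPM in WT and 183 to 267 CPM in TET1 KO livers, and none of the markers was at 0. Of this sum, Ecm1 alone held 70.7 to 148 CPM in WT and 92.9 to 157 CPM in TET1 KO livers. Of 6 portal fibroblast markers 1 (16.7%), Fbln2, was called lower (log2 fold change -1.71, edgeR adjusted p = 0.0197), against the same 0.932%. The sum of these 6 markers was 7.76 to 10.9 CPM in WT and 7.15 to 9.72 CPM in TET1 KO livers. With 1 liver left out, Fbln2 was called in 4 of 7 fits (log2 fold change -1.88 to -1.43), Nt5e in 3 of 7 (-1.71 to -1.27) and Rgs5 in 1 of 7 (-0.77 to -0.54), and none of them without WT replicate 2 (adjusted p at most 0.222) or TET1 KO replicate 2 (at most 0.114). The replicate block lost Nt5e (adjusted p = 0.0576) and Rgs5 (0.0647), and added calls of the cholangiocyte marker Sox9 and the adipocyte marker Plin1. The markers of myofibroblasts and smooth muscle summed to 19.3 to 27.6 and 17.4 to 35.9 CPM, of sinusoidal endothelium to 191 to 222 and 192 to 211 CPM, of mesothelium to 1.54 to 8.34 and 2.09 to 12.6 CPM and of Kupffer cells to 171 to 273 and 120.1 to 258 CPM. In each of these lists the groups overlapped. No marker of these 4 lists was called in the main edgeR fit. At an unadjusted p under 0.05, 2 of 7 sinusoidal genes were lower, against 12.2% of all genes tested. In the mesothelial list 1 of 5 genes, Krt19, which the cholangiocyte list also holds, was higher at that level, against 11.7%. Lyve1 was called lower in DESeq2, and in edgeR with no filter on low counts and without WT replicate 3. The part of these cell types in the collagen values was not tested.

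Some sums did separate the groups. The 5 vascular endothelial markers summed to 66.8 to 73.5 CPM in WT and 49.5 to 65.7 CPM in TET1 KO livers, and the 5 cholangiocyte markers to 6.69 to 9.91 and 15.2 to 24.1 CPM, with no marker called in edgeR. Single genes did not overlap between the groups in 10.2% (lower) and 9.56% (higher) of all genes. At an unadjusted p under 0.05, 3 vascular markers were lower and 3 cholangiocyte markers higher (Sox9, Epcam and Krt19), 3 of 5 in each list against 12.2% and 11.7% of all genes. DESeq2 called Sox9 and Epcam higher, and edgeR called Sox9 with no filter on low counts, with the replicate block and without TET1 KO replicate 4. For Epcam and Krt19, TET1 KO replicate 4 stood apart, at 4.86 CPM against 0.678 to 0.977 CPM in the other TET1 KO livers and at 6.66 against 1.05 to 1.68 CPM, while Sox9 was at 4.24 to 8.04 CPM in WT and 9.44 to 20.7 CPM in TET1 KO livers. Adipocyte markers summed to 2.09 to 3.30 CPM in WT, to 19.2 CPM in TET1 KO replicate 2 and to 0.278 to 0.610 CPM in the other TET1 KO livers. Without TET1 KO replicate 2, Col4a1 had a log2 fold change of -1.01 and an edgeR adjusted p of 0.0519, Col11a2 was still called and the adipocyte marker Cfd was called as well. Skeletal muscle markers were near 0, with a sum of 0.889 to 1.39 CPM over all livers.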

How the data were processed

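Whole-liver RNA libraries from 7 mice were analysed, 3 of them WT and 4 TET1 KO by the sample labels. The authors deposited raw read counts per Ensembl gene for each mouse, made per the labels with Trimmomatic 0.36, GSNAP and featureCounts 1.5.3 on GRCm38. The annotation release and strand setting of the counting are not given in the sources used here, so genes that overlap or lie antisense, such as the 5′ ends of Col4a1 and Col4a2, may share reads. Tables were joined by identifier, and 5 of 51431 entries that repeated an identifier were dropped. Sequences and positions are from RefSeq (GRCm38.p6), and exon lengths are unions of GENCODE M1 exons (build NCBIM37, lengths only), matched by identifier.

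Genes with at least 10 counts in total were scaled by TMM and tested with the quasi-likelihood test of edgeR 4.0.16 (R 4.3.3, no covariate), with Benjamini-Hochberg adjustment over 18553 genes and a threshold of 0.05. The standard error comes from the log2 fold change and the F statistic, CPM are TMM-scaled, and DESeq2 1.42.0 was the alternative test. Both tests were run on simulated counts with known changes, planted in genes above 1 CPM. The planted changes were larger than that of any collagen gene of at least 1 CPM. Changes of the size found in these genes were not simulated. Named are collagen genes of at least 1 CPM or with an unadjusted p under 0.05, in each partner list the called genes and the one with the highest CPM, and called markers. Genes called by DESeq2 or in a refit and the cartilage, cholangiocyte, adipocyte and neighbouring genes were named after their values were seen. The members and lists were chosen with earlier results of these data known. Libraries of 1 group differed by more than sampling noise (lowest chi-square per degree of freedom 25.0), and the labels name no batch. Alternatives were other filters, scalings, dispersions, DESeq2, a replicate block and leaving out each mouse.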

Additional observations from a re-analysis of the deposited data

Results flagged for a closer look

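In the 4 TET1 KO livers, 67 quantities (35 genes that the naming rule gave, list sums, the collagen share and chain ratios) were searched for a liver set apart from the others by Dixon's ratio of the gap to the whole range, against its 95% critical value. Chance flags about 1 in 20 such groups, here 3.35, and 4 passed. Genes named on other grounds, such as Epcam and Krt19, were not searched. The ratio was 0.875 for Col25a1, where TET1 KO replicate 2 held 0.768 CPM and the others 0.102 to 0.185 CPM. For the adipocyte marker sum it was 0.982, with 19.2 CPM in TET1 KO replicate 2 and at most 0.610 CPM in the others. The ratio was 0.906 for Rgs5, where TET1 KO replicate 2 was the lowest at 13.6 CPM beside 16.1 to 16.4 CPM. For the sum of myofibroblast and smooth muscle markers it was 0.966, with 35.9 CPM in TET1 KO replicate 4 and 17.4 to 18.0 CPM in the others.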

How the results depend on the processing

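Of 716 comparisons of a result with an alternative setting, 595 counted as kept and 121 did not. Kept meant an unchanged direction and side of the threshold, or a move by less than the replicate spread. For counts of genes called it meant staying within a set fold of the main count. Thus 148 genes called higher with robust dispersions were taken as unchanged from 110. Collagen genes called higher numbered 1 and called lower 1. They were 2 higher with filterByExpr, with no filter on low counts, with at least 10 counts in every library, with robust dispersions, in DESeq2 and with the replicate block, and 2 lower with no filter or with scaling to library size only and 7 lower in DESeq2. Leaving out 1 liver gave 0 to 2 higher and 0 to 5 lower. The collagen median log2 fold change of -0.05 was -0.24 with filterByExpr and -0.30 with at least 10 counts in every library, where fewer low genes were tested, -0.13 with the block, and -0.30 to -0.027 with 1 liver left out. Partner genes called were 9 lower and 1 higher in DESeq2, 1 higher with the replicate block, and 0 to 3 lower with 1 liver left out, with none higher.

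Over all genes, 110 higher and 173 lower were called, against 245 and 347 with no filter, 635 and 710 in DESeq2, 458 and 519 with the block, 87 and 247 with scaling to library size only, and 17 to 336 and 24 to 406 with 1 liver left out. The deviations of same-numbered livers correlated at 0.14, -0.08 and -0.07 over all genes tested, and at 0.28, 0.04 and -0.16 over the collagen genes. Of 6 numbered livers, 2 correlated best with their own number. Whether same-numbered livers share more than a number cannot be decided from so few livers. The block left replicate 4 of TET1 KO without a partner, called Col20a1 (adjusted p = 0.0353), took Nt5e (0.0576) and Rgs5 (0.0647) over the threshold, added calls of Sox9 and Plin1 and turned Col6a1 to -0.065. Direction turned for values near 0, namely Col18a1 (-0.043 with library size only, -0.093 to 0.15 with 1 liver left out), Col6a1 (-0.042, and -0.15 to 0.18), Col5a1 (-0.35 to 0.11), Col6a3 (-0.10 to 0.32), the log2 ratio of Col3a1 to Col1a1 (-0.14 to 0.059), the difference in the collagen share of counts (-0.0105 to 4.0e-05 percentage points) and the median of all genes (0.012, but -0.056 with library size only). The cause of these changes was not tested. With 1 WT liver left out, the permutation test of a chain ratio allows no p under 0.0667, and with 1 TET1 KO liver left out no p under 0.10. Genes with a few counts per library, such as Col25a1 and Col6a6, are limited by depth.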
